A study of Homo sapiens with 4 samples.

Results

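Metallothioneins are small, cysteine-rich proteins that bind zinc, copper and cadmium, and SLC30A1 (also called ZnT-1) carries zinc out of the cell across the plasma membrane. Their transcripts were followed here together with MTF1, the zinc finger factor that senses free zinc and switches on both the metallothionein genes and SLC30A1. The set comprised 9 genes: the metallothioneins MT1E, MT1F, MT1G, MT1H, MT1M, MT1X and MT2A, the exporter SLC30A1 and the regulator MTF1. Members were found by gene symbol in the array annotation, with symbols updated by gene identifier. All 9 had a probe set, and 17 of the 54675 probe sets of the array were annotated to them, each to 1 symbol. At the level of genes they were 9 of 19741.

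The study placed G9a, the product of EHMT2 and a methyltransferase for lysine 9 of histone H3, at different levels in 2 human lung adenocarcinoma lines, CL1-0 and CL1-5, the latter a more invasive derivative of the former. The 4 groups were CL1-5 with a control shRNA, CL1-5 with G9a knocked down by the shRNA labelled G9a shRNA2, CL1-0 carrying the control vector, and CL1-0 made to express G9a with an HA tag. All were stably transduced populations selected with puromycin, so the controls carry a construct and the selection too, and each perturbation rests on 1 construct. Each group was 1 Affymetrix array with no replicate, so the values below have no replicate error, no p-value is given, and the number of arrays limits the precision.

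In resting cells metallothioneins buffer zinc, and free zinc that exceeds the buffer drives MTF1 onto metal response elements in promoters. Metallothionein transcripts therefore serve as a common readout of metal exposure, and they also respond to glucocorticoids and oxidants. The genes lie side by side on chromosome 16 and their transcripts are near-identical, so that a probe set designed for one can collect signal from others. SLC30A1 and MTF1 are unrelated in sequence to the metallothioneins and lie on chromosome 1.

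The promoter windows of MT2A, MT1H, MT1X and SLC30A1 are printed. The main contrast below is of high metallothionein signals on the knockdown array with a low SLC30A1 signal. No window was available for MT1E, MT1F, MT1G or MT1M, and MT1E and MT1F had the highest ratios after the knockdown. Each window runs from 250 bases before to 50 bases after the transcript start, in the RefSeq table of build GRCh38.p14, which held windows for 5 of the 9 members. Capitals mark every match to the core of the metal response element, TGCACNC or TGCGCNC, on either strand; a match on the reverse strand reads as GNGTGCA or GNGCGCA. MT2A lies at chr16:56608334-56608633 on the plus strand, MT1H at chr16:56669564-56669863 on the plus strand, MT1X at chr16:56682220-56682519 on the plus strand and SLC30A1 at chr1:211579112-211579411 on the minus strand.
MT2A: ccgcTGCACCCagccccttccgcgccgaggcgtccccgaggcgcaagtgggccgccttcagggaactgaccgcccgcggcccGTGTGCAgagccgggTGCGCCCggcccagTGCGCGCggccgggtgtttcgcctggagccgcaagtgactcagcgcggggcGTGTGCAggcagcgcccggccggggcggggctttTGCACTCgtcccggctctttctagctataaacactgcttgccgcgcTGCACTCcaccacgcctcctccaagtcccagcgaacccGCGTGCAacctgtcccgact
MT1H: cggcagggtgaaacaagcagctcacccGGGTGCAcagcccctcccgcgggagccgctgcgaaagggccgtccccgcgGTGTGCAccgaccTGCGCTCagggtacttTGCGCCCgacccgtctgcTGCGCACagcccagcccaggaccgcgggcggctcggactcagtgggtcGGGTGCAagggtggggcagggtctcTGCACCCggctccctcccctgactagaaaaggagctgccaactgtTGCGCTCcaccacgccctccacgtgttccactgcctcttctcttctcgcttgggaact
MT1X: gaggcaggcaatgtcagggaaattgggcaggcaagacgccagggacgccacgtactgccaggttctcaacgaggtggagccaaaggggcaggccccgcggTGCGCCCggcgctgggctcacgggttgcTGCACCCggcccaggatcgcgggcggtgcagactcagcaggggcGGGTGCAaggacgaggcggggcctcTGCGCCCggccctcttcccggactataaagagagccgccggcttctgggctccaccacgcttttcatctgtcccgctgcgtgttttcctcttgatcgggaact
SLC30A1: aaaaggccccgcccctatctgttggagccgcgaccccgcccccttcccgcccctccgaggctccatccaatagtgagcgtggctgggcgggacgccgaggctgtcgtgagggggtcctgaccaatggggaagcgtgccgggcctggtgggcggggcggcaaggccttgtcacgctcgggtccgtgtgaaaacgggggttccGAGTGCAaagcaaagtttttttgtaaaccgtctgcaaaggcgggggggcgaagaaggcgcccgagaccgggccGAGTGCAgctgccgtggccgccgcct

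The MT2A and MT1H windows each held 8 matches, the MT1X window 4, the SLC30A1 window 2 and the MTF1 window 0. Among 35114 promoter windows of the same length, 29.5% held at least 1 match, 8.6% at least 2, 0.601% at least 4 and 0.0199% at least 8. No metal response element match overlapped another in these windows. A TATAAA box on the forward strand stood 29 bases before the start in MT2A and 30 before it in MT1X, and 7.33% of all windows held one; the letters were not found in the MT1H, SLC30A1 or MTF1 windows. The SLC30A1 window held 6 matches to the GC box GGGCGG on either strand, of which 1 pair shared a base, against at least 6 in 2.86% of all windows. The 5 windows held 24 (MTF1) to 37 (MT2A) CpG dinucleotides, against a median of 14.0 over all windows. These matches describe the letters only.

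**Figure D1:**
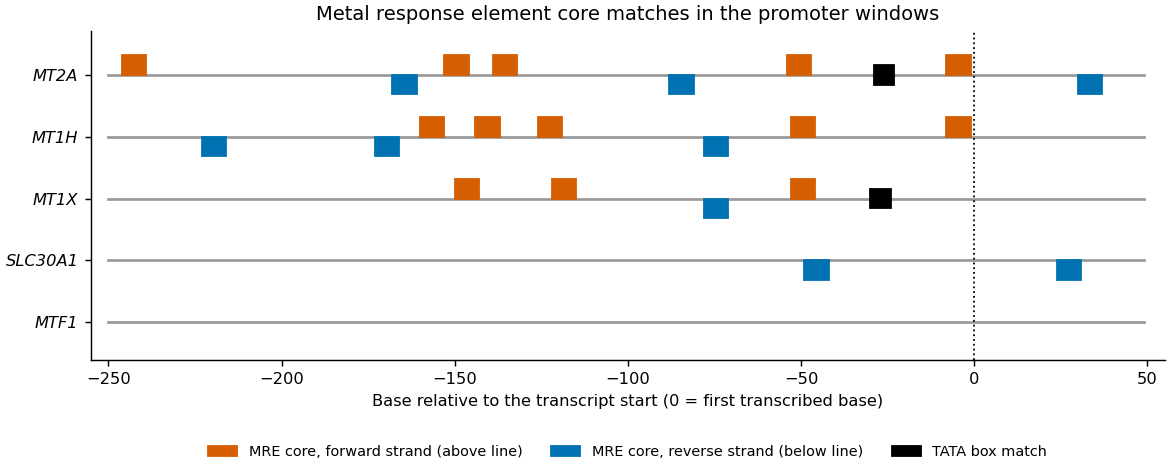
Positions of metal response element core matches in the 5 promoter windows, by distance in bases from the transcript start (dotted line). Orange boxes above a line are forward matches, blue boxes below it are reverse matches, and black boxes are TATA box matches; MT2A and MT1H carry 8 matches each and MTF1 none.

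The targeted gene followed the labels by its brightest probe set. There EHMT2 had signals of 376 and 28.1 in control and knockdown CL1-5 cells, and of 420 and 862 in vector and HA-G9a CL1-0 cells. A dimmer EHMT2 probe set was at 34.2 and 9.98 in CL1-5 and at 38.0 and 44.2 in CL1-0, the last pair within 2-fold, and the third stayed under the filter. The median signal of an array lay between 11.3 and 14.9, and the knockdown array was the brightest. Signals are therefore also compared as relative log2 ratios, which subtract the median log2 ratio of all genes past a filter on dim signals. That median was 0.42 for the knockdown against its control, -0.08 for HA-G9a against vector and -0.01 for the CL1-5 control against the CL1-0 vector. A gene was called measured in a comparison when 1 or both of its arrays reached 12.5, the median of all values, and higher or lower when its relative log2 ratio was at least 1 in size, a 2-fold difference. As a technical yardstick, log2 ratios of different probe sets of 1 gene had a pooled SD of 0.30 for knockdown against control, 0.25 for HA-G9a against vector and 0.41 between the controls, among probe sets reaching 84.2. Over all measured probe sets these SDs were 0.54, 0.51 and 0.65.

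The labels give a type II alveolar cell origin, and the defining markers were weak. Of 9 such markers on the array, between 4 and 6 reached 12.5 on each array. Their summed signal ran from 254 to 457, with ETV5 as the largest part. SFTPC read between 6.72 and 33.5. NKX2-1 read 29.6 in the CL1-5 control, 3.87 on the knockdown array, 31.2 with the vector and 60.2 with HA-G9a. ABCA3 and NAPSA were higher after the knockdown, from 16.2 to 47.4 and from 6.26 to 18.4. Leukocyte markers summed to between 23.5 and 35.3 and fibroblast markers to between 25.4 and 113. General epithelial markers summed to 3711 in the CL1-5 control, 2955 on the knockdown array, 652 with the vector and 2328 with HA-G9a. Most of each sum was KRT18, and KRT8 moved with it, at 757, 325, 67.1 and 186 in that order. CDH1 read 2.36, 77.6, 14.9 and 14.9, and EPCAM 6.06, 18.1, 24.6 and 12.6. Both were thus higher after the knockdown, and lower in the CL1-5 control than with the vector, unlike the sum. KRT19 stayed at or under 1.26. Type I alveolar markers summed to 4207, 4188, 860 and 1842 in that order, most of it CAV1. Within that list HOPX read 97.9, 12.2, 6.38 and 6.07, and AGER 20.9, 30.3, 12.3 and 6.77. Airway markers summed to between 13.4 and 26.0. Endothelial markers summed to 481 in the CL1-5 control, 100.2 on the knockdown array, and 38.0 and 17.0 in CL1-0. Of these 5 markers 4 reached 12.5 in the CL1-5 control, 1 on the knockdown array, 1 with the vector and 0 with HA-G9a, VWF being at 1.97 in the CL1-5 control, and the part of these marker lists in the results below was not tested. In such bulk samples fewer cells of a type and less RNA per cell cannot be told apart.

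MT2A, the most widely expressed human metallothionein, reached a signal of 1974 in the CL1-5 control, 4299 after G9a knockdown, 359 with the CL1-0 vector and 509 with HA-G9a. MT1X, an isoform of the same cluster, read 1166, 3312, 180 and 303 in that order by its brighter probe set. MT1H read 660, 2136, 58.6 and 93.5. Each of the 3 was highest on the knockdown array, next in the CL1-5 control and lowest with the CL1-0 vector.

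By its brighter probe set MT1E was at 149 in CL1-5 control cells, at 845 after the knockdown, at 41.7 in vector cells and at 41.4 with HA-G9a. MT1F read 190, 835, 64.5 and 41.4, and MT1G read 276, 797, 93.3 and 86.7. These 3 also had the knockdown array first and the CL1-5 control next, but the vector array was above the HA-G9a array, by 1.56 times for MT1F, 1.08 times for MT1G and 1.01 times for MT1E. The dimmer MT1E probe set differed in order, reading 52.2 with HA-G9a and 34.3 in the CL1-5 control. The order of the 4 arrays was the same when each signal was divided by its array's median, for all 9 metallothionein probe sets that were measured. The highest signal of a brightest probe set was between 9.19 times (MT1G) and 36.5 times (MT1H) the lowest.

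MT1M could not be followed. Its only probe set read 0.16 and 0.30 on the CL1-5 arrays and 3.99 and 1.51 on the CL1-0 arrays, under the filter throughout. A further MT1G probe set read between 1.25 and 4.04 and was likewise under it. These were the only 2 metallothionein probe sets not of type _x_at, a suffix that marks probes able to match transcripts of other genes. The other 9 were all of type _x_at, so the level of any single metallothionein gene is uncertain and the family is better read as a whole. The dimmer MT1X probe set is also listed in the annotation under a transcript that the RefSeq table assigns to MT1L, a transcribed pseudogene of the cluster.

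**Figure D2:**
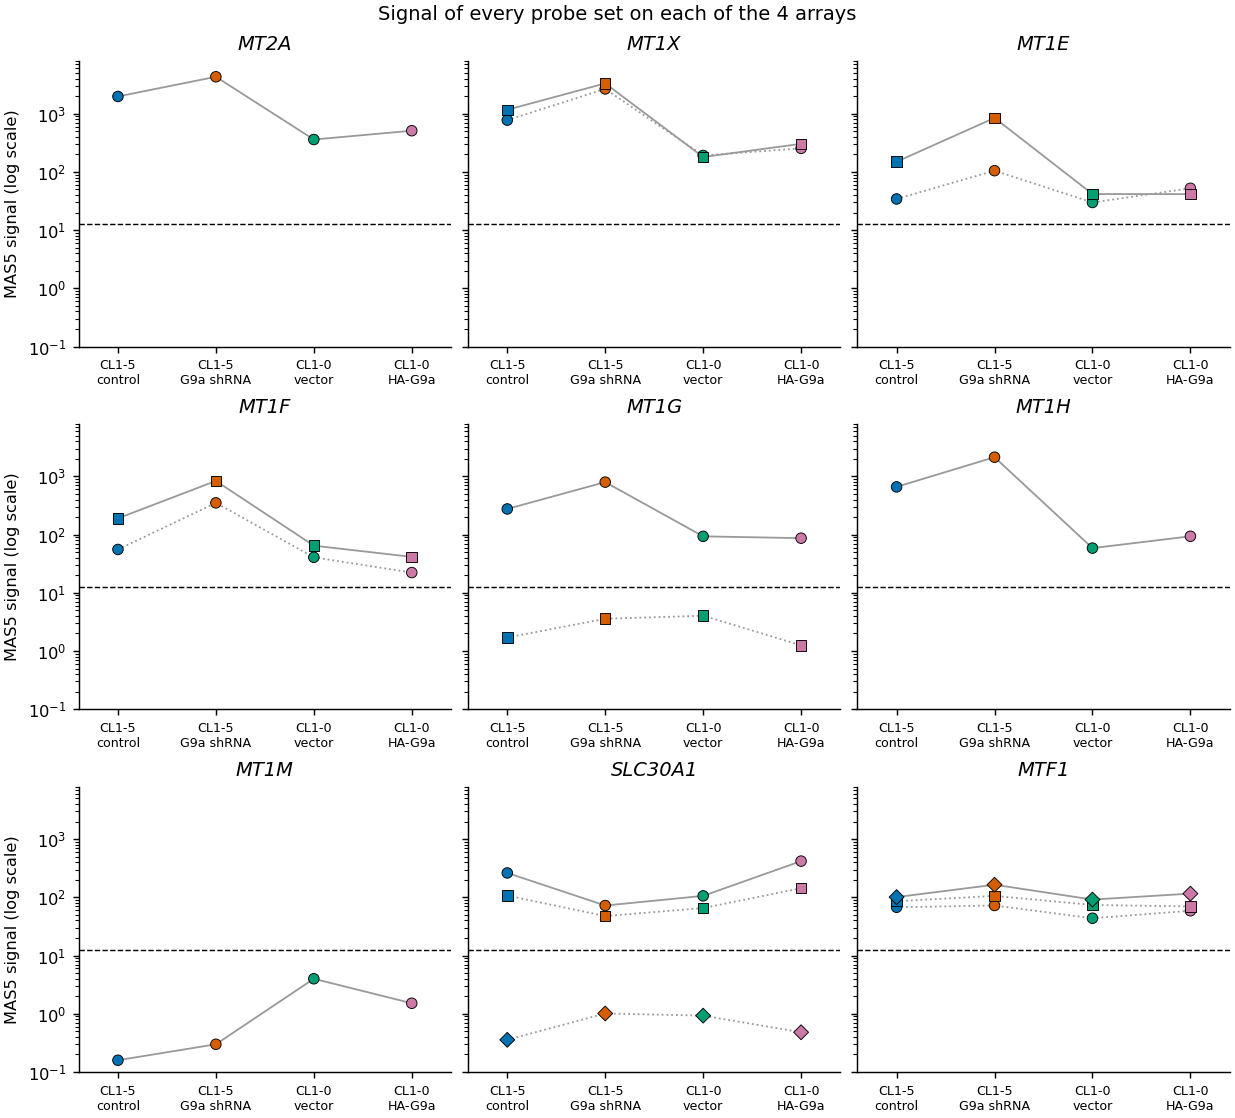
MAS5 signal on a log axis for every probe set of each gene on the 4 arrays; marker shapes separate probe sets, solid lines join the brightest one and the dashed line is the filter at 12.5. Among probe sets above the dashed line, metallothionein signals peak on the knockdown array, whereas the brightest SLC30A1 probe set peaks with HA-G9a at 419 and is lowest after the knockdown at 72.3.

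Knockdown of G9a in CL1-5 went with higher metallothionein signals. Of the 7 metallothioneins 6 were measured, and 5 of these were at least 2-fold higher relative to the median gene and 0 lower, against 8.13% of 13045 measured genes higher and 7.76% lower. Their median relative log2 ratio was 1.19, a fold of 2.29, where the median size of the ratio over all genes was 0.36. The ratio was 2.08 for MT1E, 1.71 for MT1F, 1.27 for MT1H, 1.11 for MT1G and 1.09 for MT1X, while MT2A, at 0.70, stayed within 2-fold. As deposited, MT2A was 2.18 times its control signal, a log2 ratio of 1.12.

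Probe sets of 1 gene gave the same direction. The dimmer MT1E probe set went from 34.3 to 105, a relative log2 ratio of 1.19, and the dimmer MT1F probe set from 55.5 to 351, a ratio of 2.24. The further MT1X probe set went from 774 to 2660, a ratio of 1.36. In all, 8 of 9 measured metallothionein probe sets were at least 2-fold higher and 0 lower. Because these probe sets can share targets, they are not independent measurements.

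SLC30A1, the zinc exporter, ran the other way. The signal of its brightest probe set was 262 in control CL1-5 cells and 72.3 in the knockdown cells, a relative log2 ratio of -2.28; 2.25% of measured genes lay below it. As deposited the control signal was 3.63 times the knockdown signal. A separate SLC30A1 probe set read 107 and 47.6, a ratio of -1.59, and the third stayed at or under 1.01 on every array. Both measured probe sets were of the plain type that is designed to match 1 gene. MTF1, their common activator, read 101 and 165 by its brightest probe set, a relative log2 ratio of 0.29, and its other probe sets had ratios of -0.32 and -0.12, so MTF1 stayed within 2-fold by all 3 and its direction depended on the probe set.

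The split of all genes in this comparison depended on the centring, with 1060 genes up and 1012 down when centred on the median gene but 2198 and 618 as deposited. Without centring, 6 members were higher and 1 lower. All 6 metallothionein ratios were above 0, and SLC30A1 was at least 2-fold lower, under each scaling tried. MT2A was past 2-fold without centring and within it under the others.

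HA-G9a expression in CL1-0 went with a higher SLC30A1 signal and with metallothionein signals that stayed within 2-fold. The brightest SLC30A1 probe set stood at 106 in vector cells and at 419 in HA-G9a cells, 3.96 times as much and a relative log2 ratio of 2.07; 1.5% of measured genes lay above it. The other measured probe set read 65.3 and 143, a ratio of 1.22. It was the 1 member of 8 measured that passed 2-fold, where 5.46% of 12791 genes were higher and 3.74% lower.

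The 6 measured metallothioneins had 0 members past 2-fold in either direction, with ratios from -0.56 to 0.83 and a median of 0.33. MT1X (0.83), MT1H (0.76) and MT2A (0.59) were above the median gene, MT1E (0.07) and MT1G (-0.02) were at it, and MT1F (-0.56) was below it. The 2 MT1E probe sets differed, at 0.07 and 0.89, by more than the yardstick SD, and the brighter one changed sign to -0.08 with arrays scaled to one median. Both MT1F probe sets were below 0, at -0.56 and -0.79. MTF1 had ratios of 0.42, 0.51 and 0.00 by its 3 probe sets, from signals of 91.4, 43.7 and 73.8 with the vector to 116, 58.7 and 69.6. Over all genes the split in this comparison turned with the scaling, from 699 genes up and 479 down when centred on the median gene to 553 and 705 with arrays scaled to one median, and SLC30A1 was higher under both.

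**Figure D3:**
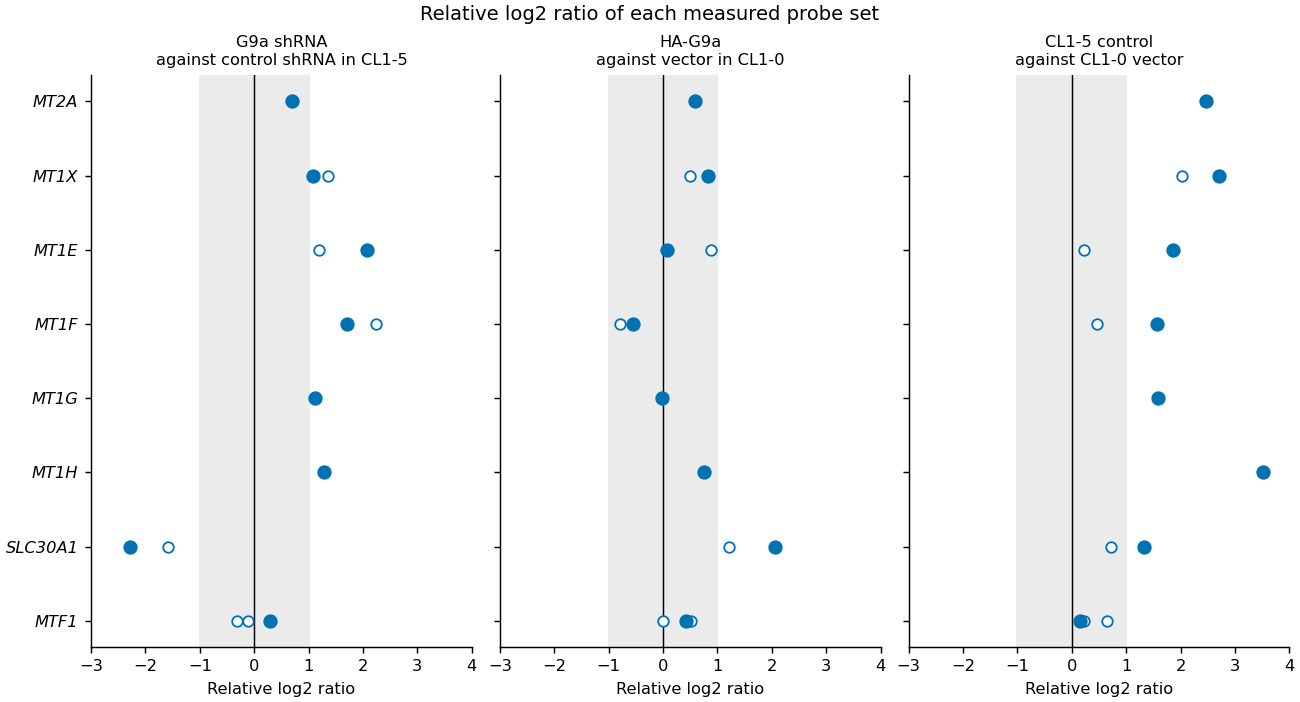
Relative log2 ratio (0 is the median gene) of each measured probe set in the 3 comparisons; filled points are the brightest probe set of a gene, open points the others, and the grey band spans less than 2-fold. In the knockdown panel the metallothioneins lie to the right, from 0.70 upward, and both SLC30A1 probe sets lie to the left.

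Set side by side, SLC30A1 had relative log2 ratios of -2.28 after the knockdown and 2.07 with HA-G9a, with the same signs as EHMT2 (-4.16 and 1.12 by its brightest probe set, -2.20 and 0.30 by the dimmer one). These comparisons use different arrays. Of 11883 genes measured in both, 125, or 1.05%, were at least 2-fold lower after the knockdown and at least 2-fold higher with HA-G9a. No metallothionein was among them. In the opposite sense, 49 genes, or 0.412%, were higher after the knockdown and lower with HA-G9a, and again no member was among them: MT1F, at 1.71 and -0.56, came nearest among the metallothioneins without passing in CL1-0.

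**Figure D4:**
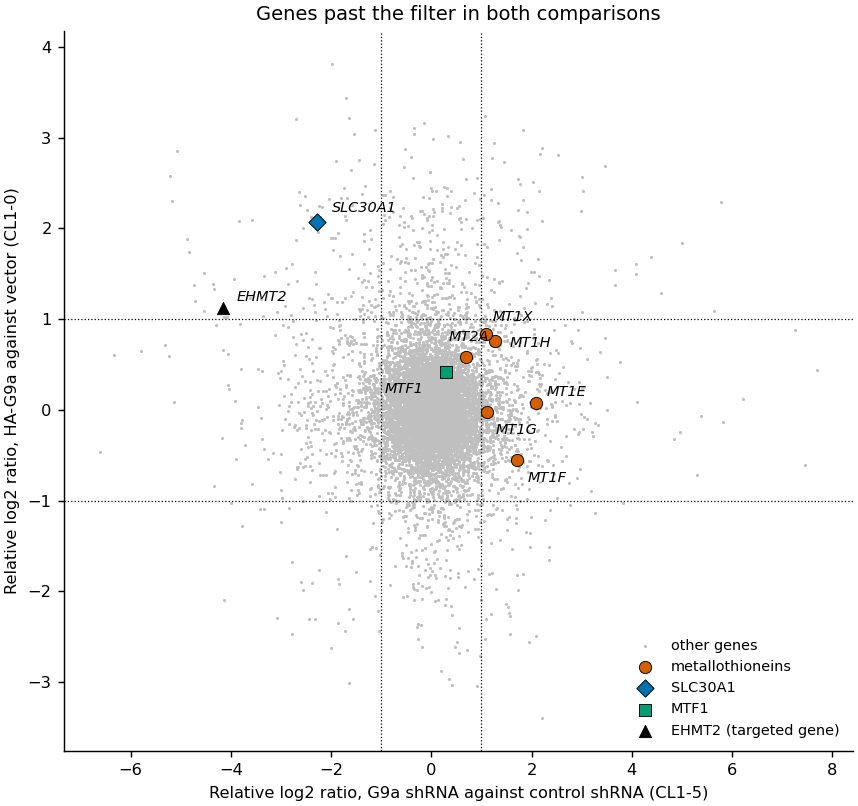
Relative log2 ratio after G9a knockdown in CL1-5 (horizontal) against that with HA-G9a in CL1-0 (vertical) for 11883 genes (grey); dotted lines mark 2-fold. The 6 measured metallothioneins (orange) lie to the right between -0.56 and 0.83 on the vertical axis, and SLC30A1 (blue) lies at the upper left on the side of EHMT2 (black).

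Between the control populations, metallothionein signals were higher in CL1-5. This comparison shares an array with each of the others, and it also differs in construct, as a control shRNA stands against a control vector. All 6 measured metallothioneins were at least 2-fold higher in the CL1-5 control, against 12.6% of 12925 genes higher and 13.2% lower. The relative log2 ratios were 3.51 for MT1H, 2.71 for MT1X, 2.47 for MT2A, 1.86 for MT1E, 1.58 for MT1G and 1.57 for MT1F. As deposited, MT1H read 11.3 times and MT2A 5.49 times as much in CL1-5.

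Dimmer probe sets showed less of this difference for MT1E and MT1F. The dimmer MT1E probe set read 34.3 in CL1-5 and 29.8 in CL1-0, a ratio of 0.22, and the dimmer MT1F probe set 55.5 and 40.7, a ratio of 0.46. The other MT1X probe set read 774 and 191, a ratio of 2.03. Over probe sets, 7 of 9 were at least 2-fold higher. SLC30A1 had ratios of 1.32 and 0.73 by its measured probe sets, and MTF1 of 0.16, 0.23 and 0.64.

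The metallothionein cluster was set beside its neighbours on chromosome 16, the 5 nearest protein-coding genes on each side. Of these 10 neighbours 7 were measured in the knockdown comparison, with 0 higher, 2 lower and a median relative log2 ratio of -0.26. Over all measured genes 8.13% were higher and 7.76% lower. BBS2, a cilium gene next to the cluster, read 174 in the control and 367 after the knockdown, a ratio of 0.65. NUP93, a nuclear pore gene on the other side, read 572 and 781, a ratio of 0.03. The lower ones were GNAO1, a G protein subunit (-1.08), and NLRC5, a regulator of MHC class I genes (-1.48), the latter dim at 17.5 and 8.38. NUDT21, OGFOD1 and HERPUD1 had ratios of -0.05, -0.31 and -0.26, and SLC12A3 and CETP were under the filter.

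With HA-G9a none of the 6 measured neighbours passed 2-fold, and their ratios ran from -0.69 to 0.89. Of all genes measured there, 5.46% were higher and 3.74% lower. Between the controls 1 of 7 measured neighbours was higher, against 12.6% of all measured genes. This was NLRC5, at 2.39. Its signals were dim, at 17.5 in the CL1-5 control and 0.52 with the vector. The latter was raised to the floor of 3.35, so the size of this ratio depends on the floor. Within the cluster itself MT3, the brain metallothionein, was at 14.5 in CL1-5 control cells, 24.8 in knockdown cells, 15.9 in vector cells and 33.7 in HA-G9a cells, ratios of 0.35 in CL1-5 and 1.17 in CL1-0. Signals of this size lie near the filter, where the yardstick SD was wider. MT4, a metallothionein of stratified epithelium, stayed at or under 10.5.

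**Figure D5:**
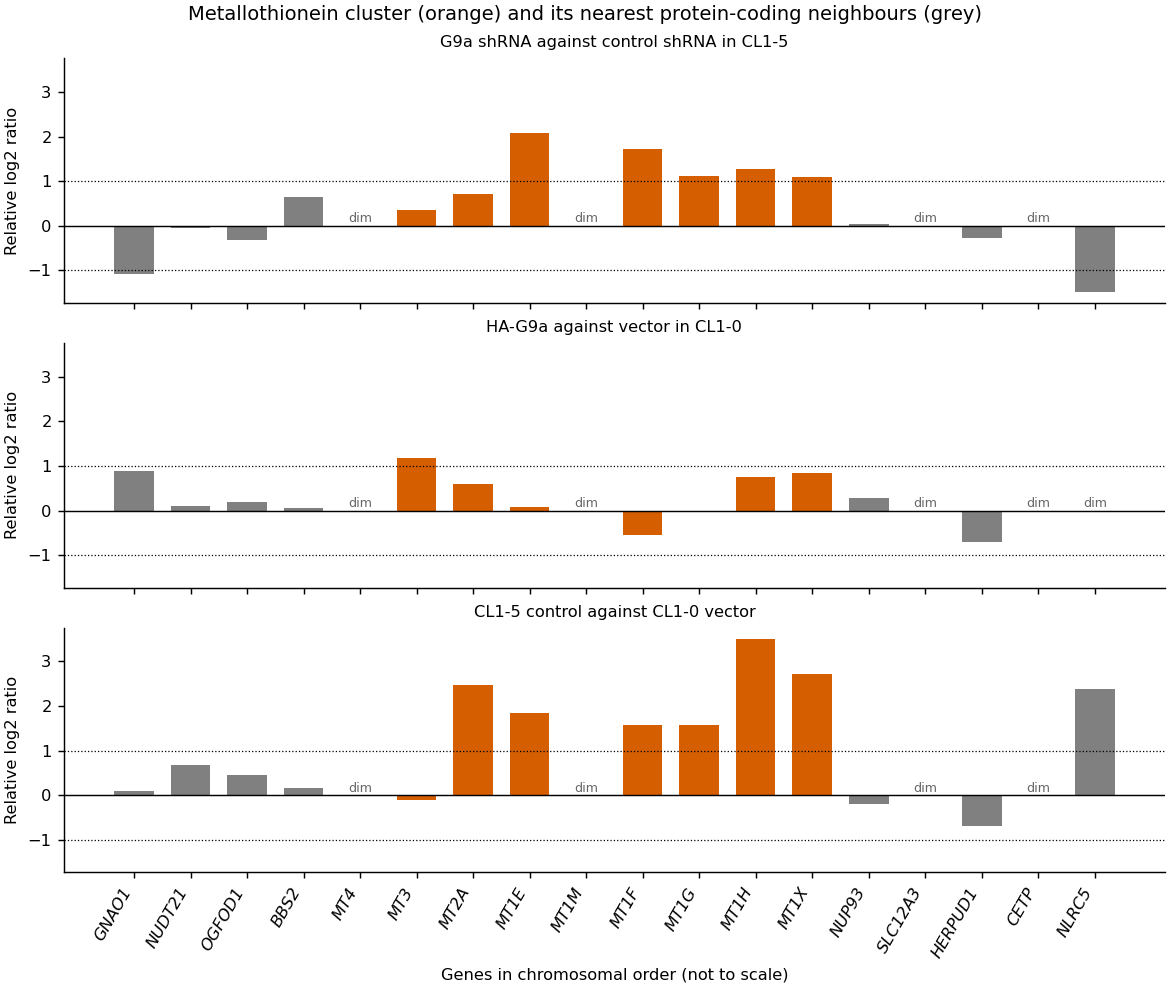
Relative log2 ratio of the metallothionein cluster (orange) and its nearest protein-coding neighbours (grey) in chromosomal order, 1 panel a comparison; genes under the filter are marked dim and dotted lines mark 2-fold. After the knockdown the orange bars from MT2A to MT1X stand between 0.70 and 2.08, and the grey bars between -1.48 and 0.65.

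In the SLC30 family of zinc exporters, including those that load zinc into vesicles and the Golgi, 6 of 10 genes were measured in the knockdown comparison. SLC30A1 was the 1 that was lower and 0 were higher; the family median was -0.45. SLC30A5, a Golgi transporter, was nearly level in deposited signal over the 4 arrays. It read 446 and 424 in control and knockdown CL1-5 cells and 464 and 485 in vector and HA-G9a CL1-0 cells. Its relative log2 ratios were -0.49 after the knockdown and 0.15 with HA-G9a. SLC30A9 had the highest ratio of the family after the knockdown, at 0.56, from 180 to 355. With HA-G9a, SLC30A1 was again the 1 of 7 measured that passed 2-fold, and the others lay between -0.21 and 0.64. Between the controls 6 were measured, of which SLC30A1 was higher and SLC30A9 (-1.24) and SLC30A4 (-1.17) were lower in CL1-5. The median was -0.21. For all measured genes, 8.13% were higher and 7.76% lower after the knockdown, 5.46% and 3.74% with HA-G9a, and 12.6% and 13.2% between the controls.

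In the SLC39 family of zinc importers, 1 of 12 measured genes was higher after the knockdown and 0 were lower, with a median of 0.13. The higher one was SLC39A5, at 29.3 against 6.47, a ratio of 1.76 from a dim signal. The shares over all measured genes were 8.13% higher and 7.76% lower. SLC39A8, an importer of zinc, manganese and cadmium, went from 118 in control CL1-5 cells to 287 in knockdown cells, a ratio of 0.87. The CL1-0 signals were 193 for vector cells and 558 for HA-G9a cells, a ratio of 1.62. SLC39A8 was the 1 importer of 13 measured past 2-fold there, where 5.46% of all genes were higher and 3.74% lower. SLC39A10, which MTF1 is known to repress, had ratios of 0.14 and 0.00. The activity of MTF1 itself was not tested. Between the controls 0 of 13 measured importers were higher in CL1-5 and 3 were lower, against 12.6% and 13.2% of all measured genes. The median was -0.16. SLC39A5 (-1.56) and SLC39A2 (-1.08) were dim, and SLC39A6 lay at the 2-fold limit, at 624 against 1262.

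Genes of copper handling, which metallothioneins also bind, stayed within 2-fold in all 3 comparisons, with 8 of 9 measured. SLC31A1, the plasma membrane copper importer, came nearest at -0.99 after the knockdown, from 410 to 276. In a list of 9 genes of the metal and heat response, HSPA1A, HSPA1B and HSPA8 had no probe set annotated to them alone. These inducible and constitutive HSP70 genes could not be read. Of the 6 measured, mostly chaperones but including the factor HSF1, 0 passed 2-fold after the knockdown and the median was -0.09. HSPA6, a strictly inducible HSP70, read 23.9 and 20.3 there, and 14.3 and 30.1 in CL1-0, a ratio of 1.15 that was the only one of the list past 2-fold with HA-G9a. DNAJB1, a heat shock cochaperone, had ratios of -0.02 and 0.49. Between the controls 2 of the 6 passed 2-fold. HSF1, the heat shock factor, was higher in CL1-5 (1.64) and HSPB1, a small heat shock protein, was lower (-1.13). All measured genes had shares of 8.13% higher and 7.76% lower after the knockdown, 5.46% and 3.74% with HA-G9a, and 12.6% and 13.2% between the controls.

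Of 8 measured oxidant-inducible NRF2 targets, 1 was higher after the knockdown and 0 lower, with a median of 0.39. That gene was SLC7A11, the cystine transporter, at 1929 against 237, a ratio of 2.60. OSGIN1 fell just short of 2-fold, at 68.0 against 25.6, a ratio of 0.99. HMOX1, heme oxygenase and a classical metal-responsive gene, read 1469 and 2139, a ratio of 0.12, and GCLC, the catalytic subunit of the first enzyme of glutathione synthesis, 647 and 1466, a ratio of 0.76. With HA-G9a none of the 8 passed 2-fold, and HMOX1 was highest at 0.53. Between the controls 0 of these 8 were higher in CL1-5 and 2 were lower, SLC7A11 (-1.75) and GCLC (-1.22), with a median of -0.67. Among all measured genes 8.13% were higher and 7.76% lower after the knockdown, 5.46% and 3.74% with HA-G9a, and 12.6% and 13.2% between the controls. A part of oxidants in the metallothionein signals was not tested.

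Of 9 measured genes of the glucocorticoid receptor and its targets, 2 were lower after the knockdown and 0 higher, with a median of -0.34. They were DUSP1, a MAP kinase phosphatase (-2.71), and SGK1, a kinase (-2.24). CEBPD, from 109 to 273, had a ratio of 0.91 and KLF9 of 0.50, while the rest lay between -0.48 and 0.04. The receptor gene NR3C1 read 1333 and 1312, a ratio of -0.44, and FKBP5, a further target, had a ratio of 0.04. A part of the receptor in the metallothionein signals was not tested. SGK1 was also the 1 gene of this list past 2-fold with HA-G9a, at 111 against 24.7, a ratio of 2.25. TSC22D3 was the lowest there at -0.89, from 52.8 with the vector to 26.8. Between the controls 3 of the 9 were higher in CL1-5, SGK1 (3.12), DUSP1 (2.50) and NR3C1 (1.18). The 2 lower ones were TSC22D3 (-2.13) and KLF9 (-1.61). Shares over all measured genes were 8.13% higher and 7.76% lower after the knockdown, 5.46% and 3.74% with HA-G9a, and 12.6% and 13.2% between the controls.

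The profile of the metallothioneins over the 4 arrays was compared with that of 7275 other genes that reached 84.2 in every comparison, by Euclidean distance between log2 signals centred on the array median and on the gene's own mean. The mean profile of the 6 measured metallothioneins was 0.80 for the CL1-5 control, 2.14 after the knockdown, -1.53 with the vector and -1.41 with HA-G9a. The closest was MT1HL1, a metallothionein copy on chromosome 1, at a distance of 0.32; its probe set is also of type _x_at and can share their signal. Next came ME1, the cytosolic malic enzyme that makes NADPH, at 0.33, with signals of 354, 1091, 88.1 and 99.99 in the same order of arrays. GLRX, a glutaredoxin that reduces glutathionylated proteins, was at 0.40, with 387, 1058, 64.1 and 102. STK3, a Hippo pathway kinase, and EPHA2, an ephrin receptor, were at 0.78 and 0.82. The 6 members themselves lay between 0.43 (MT1X) and 1.02 (MT1H) from their mean. With 4 arrays such distances are a description.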

How the data were processed

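RNA from 4 populations of 2 lung adenocarcinoma lines was hybridised to 1 array each. The values the authors deposited are linear signal intensities, 1 for each probe set on each array; MAS5 is the only tool in the submitters' processing notes, and no source used here gives its scaling or detection calls. Signals were set to a floor of 3.35 (25th percentile of all values), log2-transformed and compared between arrays. Ratios were centred on the median of genes whose brighter array reached 12.5 (the 50th percentile); a stricter filter asked for 84.2 (the 75th). Of the probe sets, 41097 had 1 symbol in the annotation table, 1801 several and 11777 were not listed. For 41043 of those with 1 symbol the gene identifier was found in RefSeq (GRCh38.p14), and the symbol was taken from there. Probe sets of Y-linked genes and of 1 X-linked transcript (58 in all) were left out. A gene took its brightest single-symbol probe set. All probe sets of the members were named, with up to 4 genes of each list, 10 neighbours and the 5 nearest profiles; SLC39A10, NR3C1 and FKBP5 were added after their values had been seen. Members and lists were chosen with earlier results of these data known. No test was run, since each group has 1 array. Counting was tested on simulated data. Python 3.11.15, pandas 2.3.3, NumPy 2.4.6 and matplotlib 3.10.9 were used.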

Additional observations from a re-analysis of the deposited data

How the results depend on the processing

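The number of members past 2-fold was 6 after the knockdown, 1 with HA-G9a and 7 between the controls. It stayed within 1.5 times these counts with no centring, median scaling, quantile normalization, a stricter or no filter, and another or no floor. With the mean over all probe sets of a gene, the count between the controls fell from 7 to 4. MT1F (0.999), MT1G (0.64) and SLC30A1 (0.67) no longer passed. The means of MT1G and SLC30A1 include a probe set under the filter. The second MT1F probe set was measured, with a smaller ratio of 0.46. Without probe sets of types _s_at and _x_at the count was 1 after the knockdown and 1 between the controls, SLC30A1 in both, because 2 members remained measured. Of 196 member ratios under these alternatives, 178 moved by less than the yardstick SD, 18 moved by more and 0 reversed a member past 2-fold. SLC30A1 kept its direction, and stayed past 2-fold, in 9 of 9 alternatives after the knockdown (-2.31 to -1.41) and with HA-G9a (1.10 to 2.08). MT1G fell to 0.41 after the knockdown with the mean over probe sets. Counts over all genes moved by more than 1.5 times. After the knockdown 2198 were higher and 618 lower with no centring, 410 and 437 with the stricter filter, and 1675 and 1569 with no filter. With the floor at the median 679 were higher. With HA-G9a 124 were higher and 63 lower with the stricter filter, 1225 and 1095 with no filter, and 332 and 204 with the floor at the median, and 437 were higher with the mean over probe sets. Between the controls 851 were higher and 786 lower with the stricter filter. No paired analysis was possible because each group has 1 array and the labels carry no replicate numbers. Dim signals limit MT1M, MT3 and MT4.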

Other observations

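At a 4-fold threshold, chosen after the values had been seen, 17 of 11883 genes (0.143%) were lower after G9a knockdown in CL1-5 and higher with HA-G9a in CL1-0, and SLC30A1 was among them by its brightest probe set. Its other measured probe set, at -1.59 and 1.22, did not pass 4-fold, nor did SLC30A1 with no centring (-1.86 and 1.98), with the mean over probe sets (-1.41 and 1.10) or, for HA-G9a, with median scaling (1.91) or no filter (1.98). Of the others, named after their values were seen, MMP1, an interstitial collagenase, had relative log2 ratios of -5.08 and 2.86, PTX3, a soluble pattern recognition protein, -5.22 and 2.58, NRP2, a semaphorin and VEGF coreceptor, -5.17 and 2.30, the tetraspanin CD82 -2.63 and 2.40, and EDN1, the precursor of endothelin, -2.23 and 2.13. The unconventional myosin gene MYO10 had ratios of -2.18 and 2.24, and SGK1 of -2.24 and 2.25. No metallothionein was in this group.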
